A study of Arabidopsis thaliana with 8 samples.

Results

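Heat shock proteins and heat shock factors were examined in shoots and roots of the Arabidopsis thaliana accession Col-0, the common laboratory wild type. The members were the genes of the expression table whose symbol begins with HSP and a digit, or with HSFA, HSFB or HSFC and a digit. The rule gave 60 of the 33199 genes, of which 21 encode heat shock factors (HSFs) and 39 encode heat shock proteins (HSPs), 20 of these being small HSPs. Messenger RNA was sequenced from 4 shoot and 4 root samples. All samples carried the same genotype, and the labels name tissue as the treatment and mention no heat. The age of the plants, the growth conditions and whether replicates were separate plants were not stated in the sources used here, so each p-value reflects the spread among these 4 and 4 samples alone, and that spread may be technical. Values are FPKM, that is, fragments per kilobase of gene length and relative to a scaled library size set by the authors.

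HSFs are transcription factors that bind heat shock elements, runs of the unit GAA in alternating orientation, in front of chaperone genes. In plants the class A factors activate transcription, with the HSFA1 proteins acting as master regulators of the heat response, whereas class B factors lack the activator motif and mostly act as repressors. Small HSPs hold unfolding proteins in a soluble state, HSP70 and HSP60 refold them using ATP, and HSP90 matures client proteins such as receptors and kinases. Separate genes serve the cytosol, plastid, mitochondrion and endoplasmic reticulum (ER), and many of them are induced by heat while others are expressed constitutively.

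The 8 libraries held 9857791 to 12460762 reads assigned to genes, and 3 reads on a gene of 1 kb correspond to 0.192 to 0.375 FPKM in a library. The summed FPKM of 6 markers of green shoot tissue, RBCS1A, LHCB2.1, LHCA1, RCA, PSBO1 and YAB1, was 37650 to 47840 in shoot and 61.9 to 299.3 in root, with root libraries 1 and 2 the highest of the root libraries. The summed FPKM of 6 root markers, PIN2, CASP1, PER64, PLT1, COBL9 and SMB, was 276.6 to 411 in root and 0.931 to 3.51 in shoot, so each tissue carried its own markers. Of 5 seed markers, OLE1 and EM1 had 0 reads, and the summed FPKM of CRA1, OLE1, ABI3, EM6 and EM1 stayed at 0 to 0.603 in shoot and 0.0265 to 0.514 in root.

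Of the 60 members, 57 had at least 1 read and 49 reached 0.5 FPKM in 4 or more libraries and were tested, and 11 were too low for this. By limma across all 20314 genes tested, with the call at an adjusted p under 0.05, 22 members were higher in root and 10 were higher in shoot, while 17 were not called. These 32 calls were 65.3% of the members tested, against 69.6% called over all genes. The members higher in root were 44.9% of those tested, against 37.6% of all genes, and those higher in shoot were 20.4%, against 32%. Called changes of at least 2-fold, measured in log2(FPKM + 0.5), were found for 13 of the 49 members higher in root and 6 higher in shoot. Over all 20314 genes tested these counts were 4250 and 3670. The tissues had no overlap in FPKM for 29 members, and over all genes tested that share was 64.8%. The tested members' median log2 fold change, taken as root less shoot, was 0.37, and that of all genes was 0.07. Scaling by library totals alone moved the median of all genes to 0.58, a shift of 0.51, and gave 34 members higher in root and 6 higher in shoot. The share of the members' calls that were higher in root went from 68.8% to 85%, and over all genes from 54% to 75.2%. Less the shift of 0.51, the members' median with library totals was 0.36. In bulk tissue fewer cells of a type and less RNA per cell cannot be told apart, and this holds for each difference given here.

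**Figure D1:**
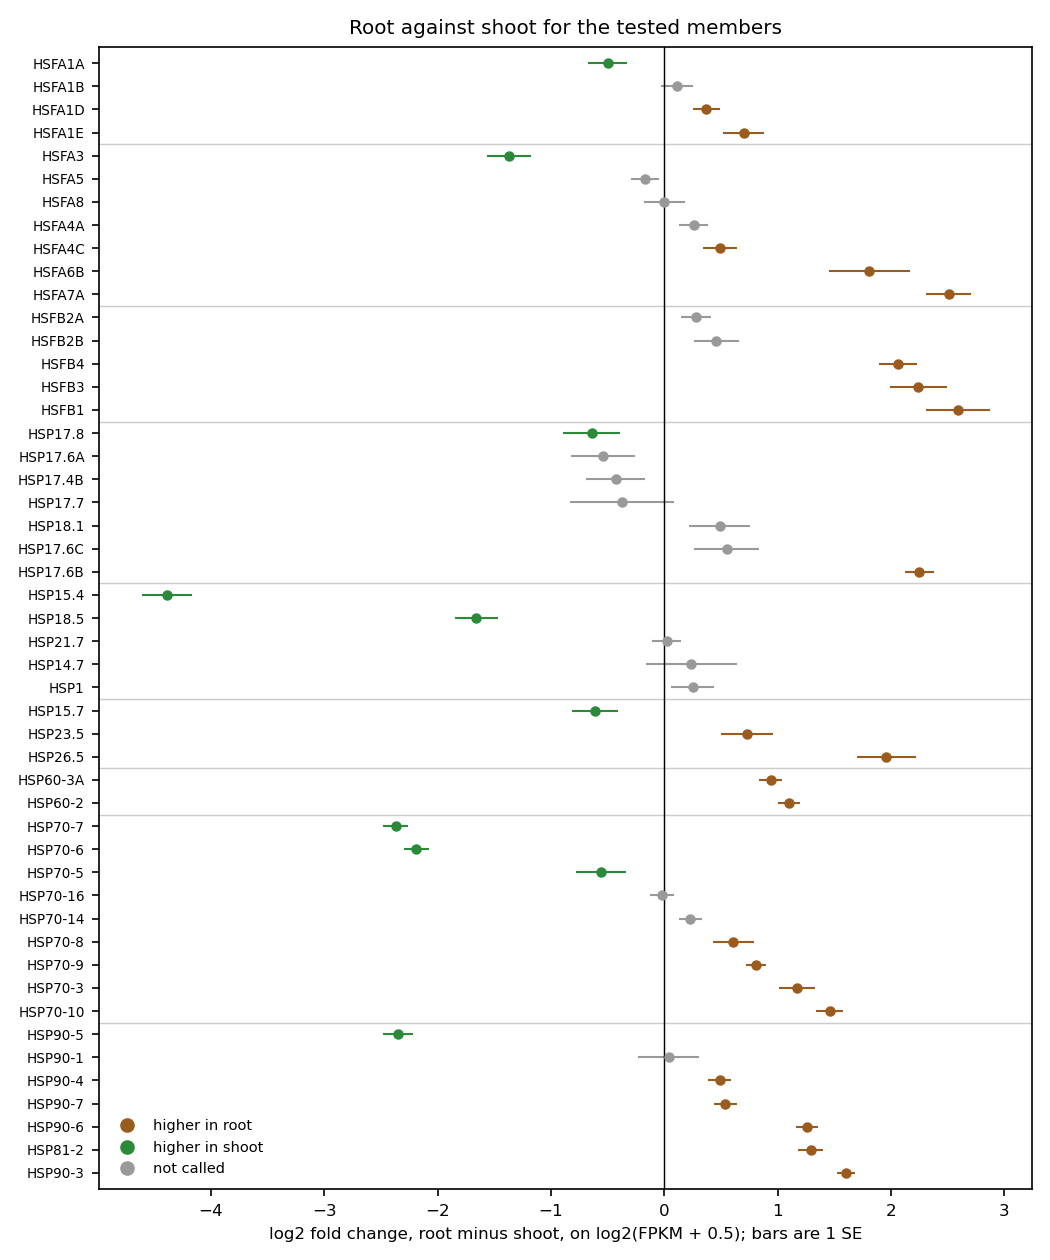
Log2 fold change (root less shoot, in log2(FPKM + 0.5)) of the 49 tested members, by class, with bars of 1 SE from limma over 4 libraries per tissue; brown points were called higher in root, green points higher in shoot, and grey points were not called. HSP15.4 lies at -4.39, the plastid members HSP70-6, HSP70-7 and HSP90-5 lie between -2.37 and -2.19, and HSFB1 and HSFA7A lie at 2.59 and 2.51.

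The heat shock factors as a family were more abundant in root. Their summed FPKM was 83.7, 76.2, 71.9 and 66.2 in shoot and 166.8, 183.9, 169 and 174.9 in root, each in the order of libraries 1 to 4, with means of 74.5 ± 7.41 and 173.6 ± 7.66 (SD, n = 4). HSFB1 and HSFA7A carried most of that difference, since HSFB1 made up 13.6% ± 5.11 of the sum in shoot and 34.6% ± 2.9 in root, and HSFA7A 9.22% ± 3.22 and 23.1% ± 3.44. The share of the 4 HSFA1 genes was 29.4% ± 2.9 in shoot and 14.3% ± 1.43 in root. Of the 16 factors tested, 8 were higher in root (50%, against 37.6% of all genes) and 2 in shoot (12.5%, against 32%).

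The 4 HSFA1 genes, the master activators, did not move together, with 2 higher in root, 1 higher in shoot and 1 not called, and log2 fold changes from -0.50 to 0.70. HSFA1B (AT5G16820, chromosome 5, 5530195 to 5532889, plus strand), the most abundant of them, stood at 7.74, 9.52, 7.96 and 8.36 FPKM in shoot and at 9.84, 10.2, 9.68 and 6.86 in root. Its tissues overlapped, and its log2 fold change of 0.11 (SE 0.14) was not called (limma, adjusted p = 0.514). HSFA1E (AT3G02990, chromosome 3, 673428 to 676428, plus strand) stood at 3.21, 2.46, 2.58 and 2.0 FPKM in shoot and 3.94, 5.84, 4.44 and 3.75 in root, without overlap, and was higher in root (log2 fold change 0.70, SE 0.18, limma adjusted p = 0.00457). HSFA1D was also higher in root, at 5.95 ± 0.672 and 7.83 ± 0.569 FPKM (SD, n = 4; log2 fold change 0.37, limma adjusted p = 0.0169), and without root libraries 1 and 2 the difference was 0.39 but was not called (adjusted p = 0.0534). HSFA1A (AT4G17750, chromosome 4, 9869818 to 9871646, minus strand) went the other way, with 3.9, 5.87, 5.23 and 4.45 FPKM in shoot and 3.38, 3.75, 3.6 and 2.40 in root. Its values did not overlap and were called higher in shoot (log2 fold change -0.50, SE 0.17, limma adjusted p = 0.0231), but the call was lost without shoot library 2, without shoot library 3 or without root library 4 (adjusted p = 0.0581 to 0.0607), and with library totals the log2 fold change was -0.01.

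Among the other class A factors, HSFA7A (AT3G51910, chromosome 3, 19265141 to 19266806, plus strand), a heat-inducible gene, was the most abundant over both tissues together and had the largest change towards root on the log2(FPKM + 0.5) scale. It stood at 8.44, 4.74, 5.17 and 8.85 FPKM in shoot and at 36.3, 39.5, 35.3 and 49.4 in root. Every root library was above every shoot library, and the mean was 5.9-fold higher in root (log2 fold change 2.51, SE 0.20, limma adjusted p = 8.86e-07). Its closest relative HSFA7B (AT3G63350) had 0 reads in shoot and 24 in root, where its levels were 0.414, 0.467, 0.456 and 0.305 FPKM. Taking 3 reads over all shoot libraries as the floor, it was at least 5.2-fold higher in root. It fell under the filter on low values and was not tested. HSFA6B (AT3G22830), a factor of abscisic acid and drought responses, stood at 0.438, 0.317, 0.19 and 0.0766 FPKM in shoot and at 0.771, 1.97, 4.6 and 2.41 in root. Its root libraries spread widely but all lay above the shoot libraries (log2 fold change 1.81, SE 0.36, limma adjusted p = 0.00108), with 2.16 without root library 1 and 1.49 without root library 3. By the ratio of means, which has no pseudocount, HSFA6B was 9.55-fold higher in root, on 14 and 205 reads.

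HSFA3 (AT5G03720, chromosome 5, 971142 to 974326, minus strand), which is induced through the factor DREB2A under heat and drought, was the only class A factor outside HSFA1 that was called higher in shoot. It stood at 3.44, 4.81, 3.03 and 3.22 FPKM in shoot and at 0.926, 0.838, 1.56 and 1.08 in root, without overlap (log2 fold change -1.37, SE 0.19, limma adjusted p = 8.27e-05). DREB2A itself was higher in root, where it reached 14 ± 3.09 FPKM against 1.65 ± 0.37 in shoot (SD, n = 4; a log2 difference of 2.74, limma adjusted p = 2.04e-07), so the pair moved in opposite directions. HSFA4C, an activator of stress responses, was higher in root, at 5.27 ± 1.06 and 7.53 ± 0.634 FPKM (log2 fold change 0.49, limma adjusted p = 0.0123), and without root libraries 1 and 2 the value was 0.40 and was not called (adjusted p = 0.108). HSFA4A, HSFA5, which can dimerise with the HSFA4 factors, and HSFA8 were not called, with log2 fold changes of 0.26, -0.17 and 0.00. HSFA2, the factor that sustains an acquired heat response and is strongly heat-induced in leaves, had 4 reads over the shoot libraries, all in library 1, and 18 over the root libraries. HSFA6A had 5 and 4 reads. HSFA9, the factor of developing seeds, had 0 reads in all 8 libraries, where the seed markers were also at or near 0. A snoRNA gene on the opposite strand covers 18.2% of HSFA9.

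The class B factors had the highest median of the classes. Of the 5 tested, 3 (60%, against 37.6% of all genes) were higher in root, with fitted log2 fold changes of 2.06 to 2.59. None of the 5 was called higher in shoot. Their median log2 fold change was 2.06, or 1.96 with library totals less the shift of all genes. HSFB1 (AT4G36990, chromosome 4, 17440177 to 17442151, plus strand), a repressor of heat-inducible HSF genes and the most abundant factor of all in root, stood at 16.5, 11.3, 8.91 and 4.88 FPKM in shoot and at 59.6, 69.1, 58.1 and 53.7 in root. The shoot libraries ranged over more than 3-fold, yet all lay below the root libraries, and the mean was 5.79-fold higher in root (log2 fold change 2.59, SE 0.28, limma adjusted p = 1.1e-05). HSFB4 (AT1G46264, chromosome 1, 17224720 to 17226541, plus strand), known as SCHIZORIZA for its part in root stem cell divisions, stood at 1.67, 1.26, 2.51 and 1.67 FPKM in shoot and at 8.25, 8.64, 8.6 and 9.96 in root (log2 fold change 2.06, SE 0.17, limma adjusted p = 1.19e-06). HSFB3 (AT2G41690, chromosome 2, 17381647 to 17382851, plus strand) was found almost wholly in root, with 0, 0, 0.0921 and 0 FPKM in shoot and 1.24, 2.79, 2.98 and 1.37 in root. These values rest on 1 read in shoot and 121 in root, so the ratio of 78.6 has a 95% interval from counting error that runs from 13.9 to 3131 (limma adjusted p = 1.3e-05). HSFB2A and HSFB2B, the paired repressors of the heat response, were not called, at log2 fold changes of 0.28 and 0.46 (limma adjusted p = 0.0758 and 0.0595), although HSFB2B was called higher in root without shoot library 2 (adjusted p = 0.0191) or without root library 2 (adjusted p = 0.042). HSFC1, the only class C factor, was listed at 0 in all 8 libraries. A gene of a long non-coding RNA, AT3G24518, lies over 99.9% of HSFC1 on the opposite strand and held 12 reads in shoot and 31 in root, and the library steps do not mark strand, so the 0 does not show that HSFC1 was silent.

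**Figure D2:**
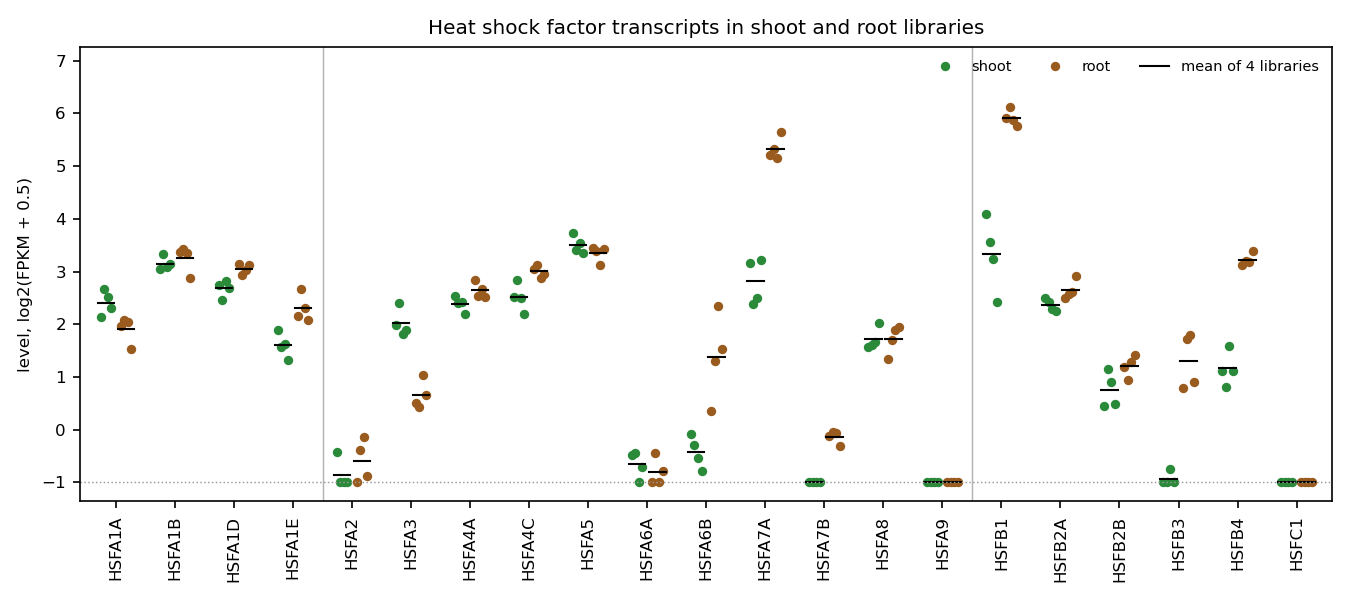
Level of each of the 21 heat shock factors, as log2(FPKM + 0.5), in the 4 shoot (green) and 4 root (brown) libraries, with a bar at the mean; vertical lines part the HSFA1 genes, the other class A genes and classes B and C, and the dotted line is the level of 0 FPKM. HSFA7A, HSFB1, HSFB3 and HSFB4 have all root libraries above all shoot libraries, HSFA3 shows the reverse, and HSFA9 and HSFC1 lie at 0.

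The heat shock element was looked for in the 300 bases in front of the annotated gene start (RefSeq annotation and sequence of the TAIR10.1 assembly, whose gene positions were those of the table for all 60 members). The annotated start need not be that of transcription, so the windows may not be equivalent between genes. For HSP70-18 the gene length equals that of its coding sequence (1854 bases), so its window lies directly in front of the coding start. A pair of units in the order GAANNTTC, which reads the same on both strands, was present in front of 11 of the 60 members (18.3%). Over protein-coding nuclear genes it was present for 3151 of 27419 (11.5%). The other order of a pair, TTCNNGAA, was not looked for, so members with that pair alone are not counted. A run of 3 alternating units, GAANNTTCNNGAA or its other strand TTCNNGAANNTTC, was in front of 6 of 60 members (10%), against 133 of all (0.485%). The longer motif contains the shorter one. The 6 members with this run are shown. Capitals mark the run of 3 units, and each sequence is read 5′ to 3′ on the strand of its gene.
HSFA2 (chr2:11135521-11135563, plus strand): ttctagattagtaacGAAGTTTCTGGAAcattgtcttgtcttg
HSFA7A (chr3:19264934-19265026, plus strand): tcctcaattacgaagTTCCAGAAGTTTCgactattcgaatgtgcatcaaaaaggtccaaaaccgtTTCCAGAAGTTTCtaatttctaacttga
HSFA7B (chr3:23399064-23399106, plus strand): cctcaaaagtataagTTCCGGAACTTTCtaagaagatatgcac
HSP17.4A (chr3:16984868-16984981, minus strand): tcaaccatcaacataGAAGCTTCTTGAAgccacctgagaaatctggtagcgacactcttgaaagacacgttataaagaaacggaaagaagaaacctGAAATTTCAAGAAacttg
HSP17.6C (chr1:19980231-19980273, plus strand): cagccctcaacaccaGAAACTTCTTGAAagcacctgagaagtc
HSP90-1 (chr5:21352257-21352289, plus strand): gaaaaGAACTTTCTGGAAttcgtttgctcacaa

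The stretch in front of HSFA7A holds the same 13 letters at both of its matches, and that in front of HSFA7B holds a run of the same kind with other letters between the units. A match in these letters is a description of the sequence only. The 6 genes did not share a pattern between the tissues. HSFA7A was 5.9-fold higher in root and HSFA7B was seen in root alone, and HSP90-1 and HSP17.6C were not called. HSFA2 and HSP17.4A fell under the filter on low values and were not tested. The other 5 members with GAANNTTC but no run of 3 were HSFA4A, HSP21, HSP26.5, HSP60-3A and HSP70-18. No match was found in front of HSFB1, HSFB3 or HSFB4, which says only that these letters are not in those windows.

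The small HSPs showed no common direction. Of the 15 tested, 3 were higher in root (20%, against 37.6% of all genes) and 4 in shoot (26.7%, against 32%). The median log2 fold change was 0.02. With library totals 7 were higher in root and 2 in shoot, with a median of 0.04 less the shift of all genes. By that scaling 77.8% of the small HSP calls were towards root, close to the 75.2% over all genes. Their summed FPKM was 324.8, 304.3, 243.4 and 309.9 in shoot and 67.3, 62.2, 63.9 and 52.8 in root. That difference was carried by HSP15.4, which made up 85.2% ± 2.29 of the sum in shoot and 19.3% ± 5.76 in root (SD, n = 4). Without HSP15.4 the sum was 44 ± 9.66 FPKM in shoot and 49.5 ± 4.19 in root, and the libraries of the tissues overlapped.

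HSP15.4 (AT4G21870, chromosome 4, 11603481 to 11604637, minus strand), a small HSP outside classes I to III, had the largest fitted change of any member on the log2(FPKM + 0.5) scale. It stood at 271.2, 253.3, 208.7 and 273.2 FPKM in shoot and at 17.9, 13.3, 9.01 and 8.07 in root, that is, 9015 and 684 reads. The groups lay far apart, with the mean 20.9-fold higher in shoot (log2 fold change -4.39, SE 0.22, limma adjusted p = 1.8e-08). The root libraries held 7.1%, 5.29%, 3.58% and 3.21% of the shoot mean. The summed green shoot markers held 0.706%, 0.444%, 0.146% and 0.165% of theirs, so both were highest in root library 1 and next in root library 2, and the part of green tissue in the root values of HSP15.4 was not tested. Without root libraries 1 and 2 the log2 fold change was -4.80. HSP18.5 (AT2G19310), of the same group, was also higher in shoot, at 16.0, 16.7, 10.9 and 11.6 FPKM against 5.37, 3.72, 4.0 and 2.98 (log2 fold change -1.66, SE 0.19, limma adjusted p = 1.74e-05). HSP21.7, HSP14.7 and HSP1 were not called, with log2 fold changes of 0.02, 0.24 and 0.25. HSP14.7 ranged from 0.447 to 4.47 FPKM within the shoot libraries, and HSP1 shares 35.3% of its length with AT4G14840 on the opposite strand, so its reads may belong to either gene.

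The 9 small HSPs of classes I to III, the cytosolic proteins best known for their strong heat induction, were listed at low FPKM in both tissues. Of these, 7 were tested. HSP17.6B (AT2G29500, chromosome 2, 12633065 to 12634120, minus strand) was the exception. It stood at 2.83, 3.9, 3.22 and 3.09 FPKM in shoot and at 17.1, 15.9, 20.5 and 15.9 in root, with narrow and separate groups, 5.32-fold higher in root (log2 fold change 2.25, SE 0.13, limma adjusted p = 6.04e-08). HSP17.8 (AT1G07400, chromosome 1, 2274926 to 2275783, plus strand) stood at 2.55, 1.6, 1.28 and 1.97 FPKM in shoot and at 0.895, 1.77, 0.903 and 0.577 in root. It was called higher in shoot although its tissues overlapped (log2 fold change -0.64, SE 0.25, limma adjusted p = 0.0412). That call was lost on leaving out any of 6 of the 8 libraries, namely shoot 1, 2 or 4 or root 1, 3 or 4 (adjusted p = 0.0523 to 0.114), with limma-voom (0.0584), without a filter on low values (0.0548), and with library totals (0.405).

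HSP17.4B, HSP17.6A, HSP17.6C, HSP17.7 and HSP18.1 were not called, with log2 fold changes from -0.54 to 0.55 and mean levels of 0.526 to 3.13 FPKM. HSP18.1 and HSP17.6C were called higher in root without shoot library 2 (adjusted p = 0.00877 and 0.0362). HSP17.6, with 23 and 7 reads, and HSP17.4A, with 6 and 10, were not tested. A gene of a long non-coding RNA, AT3G07365, lies over 60.4% of HSP17.4A on the opposite strand and held 0 reads. The library steps do not mark strand and the treatment of shared reads is not stated. The count of HSP17.4A thus does not show that its transcript was scarce. In shoot each of the 7 tested genes had its highest value in library 1 (4 genes) or library 2 (3 genes) and none in libraries 3 or 4, which shows in the range of HSP17.7, at 2.61, 1.7, 0.906 and 0.274 FPKM, and of HSP17.6A, at 2.15, 0.688, 0.55 and 0.931. In root the highest value fell in library 3 for 4 of the 7 tested genes. Neither count was set against all genes. HSP17.6 and HSP17.7 lie 845 bp apart on chromosome 5. The coding sequences of HSP17.8 and HSP17.6A are 88.1% identical, with a longest shared stretch of 43 bases, against reads of 150 bases.

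The 6 small HSPs of organelles were at low levels in both tissues. The 3 that could be tested were all called, where 69.6% of all genes tested were called. HSP26.5 (AT1G52560, chromosome 1, 19574538 to 19575866, minus strand), of mitochondria, stood at 0.441, 0, 0 and 0.231 FPKM in shoot and at 2.02, 1.21, 2.43 and 2.61 in root, without overlap, on 6 and 117 reads (log2 fold change 1.96, SE 0.26, limma adjusted p = 6.07e-05). HSP23.5 (AT5G51440), also mitochondrial, stood at 0.929, 0.56, 1.17 and 0.541 FPKM in shoot and at 1.15, 1.28, 1.96 and 2.22 in root. The tissues overlapped by a small margin, and it was called higher in root (log2 fold change 0.73, SE 0.23, limma adjusted p = 0.0153). HSP15.7 (AT5G37670), of peroxisomes, was called higher in shoot, at 1.24, 0.749, 1.2 and 1.3 FPKM against 0.537, 0.303, 0.844 and 0.593 (log2 fold change -0.61, SE 0.20, limma adjusted p = 0.0198). This call was lost without shoot library 4 (adjusted p = 0.0516), without root library 2 (0.0524), without root libraries 1 and 2 (0.134) and with library totals (0.244). HSP23.6 of mitochondria had 3 and 6 reads, HSP22.0 of the ER 1 and 3, and HSP21 of plastids 0 and 3, and none of them was tested. HSP21 thus had no read in shoot, where the transcripts of green tissue were high.

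**Figure D3:**
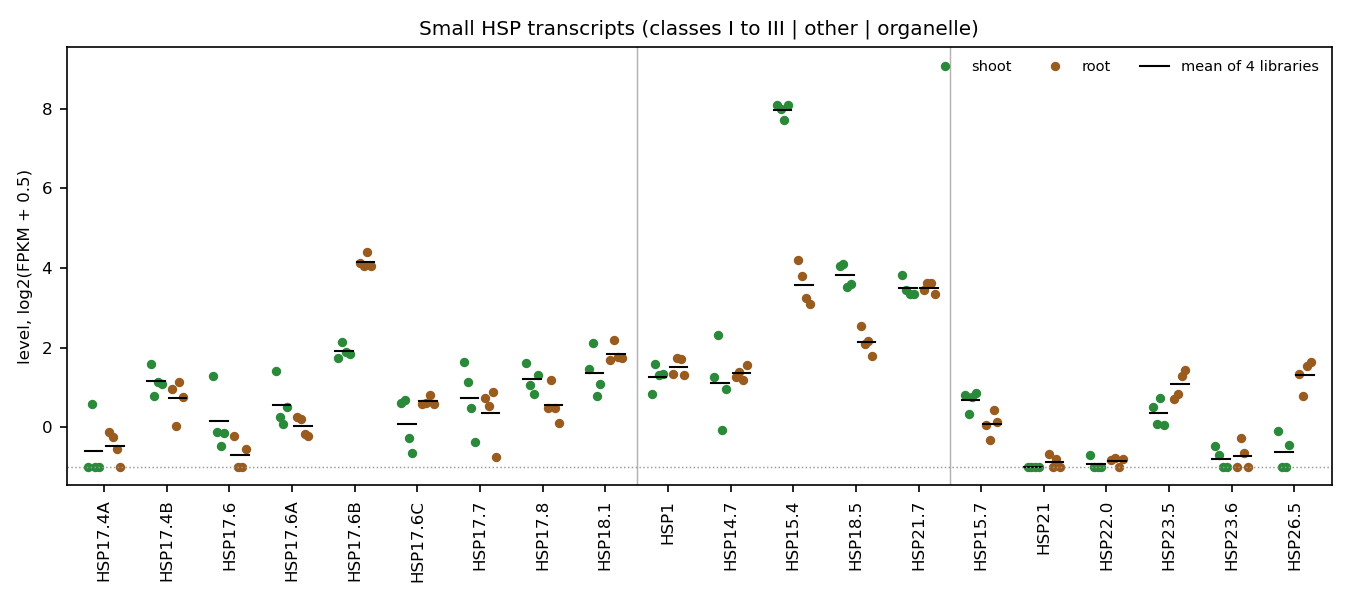
Level of each of the 20 small HSPs, as log2(FPKM + 0.5), in the 4 shoot (green) and 4 root (brown) libraries, with a bar at the mean; vertical lines part classes I to III, the other small HSPs and those of organelles, and the dotted line is 0 FPKM. HSP15.4 lies far above all others in shoot, HSP17.6B is the class I to III member set apart in root, and most others lie below 4 FPKM.

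The large HSPs divided by compartment. All 3 plastid members were higher in shoot (median log2 fold change -2.35) and all 5 mitochondrial members were higher in root (median 1.10). The 7 cytosolic members gave 4 calls towards root and 1 towards shoot (median 0.49). Over all genes tested 37.6% were higher in root and 32% in shoot. With library totals the directions of the plastid and mitochondrial members stayed, from -1.82 to -1.64 for HSP70-7, HSP90-5 and HSP70-6 and from 1.36 to 2.00 for HSP70-9, HSP60-3A, HSP60-2, HSP90-6 and HSP70-10.

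HSP70-6 (AT4G24280, chromosome 4, 12589810 to 12593800, plus strand) and HSP70-7 (AT5G49910, chromosome 5, 20303334 to 20306469, plus strand) encode the stromal HSP70 proteins, which take part in protein import into chloroplasts. HSP70-6, the most abundant HSP70 member in shoot, stood at 202.9, 233.5, 207.6 and 189.6 FPKM in shoot and at 50.2, 48.2, 45.9 and 37.4 in root (log2 fold change -2.19, SE 0.11, limma adjusted p = 2e-08). HSP70-7 stood at 123.2, 140.8, 116.7 and 100.2 FPKM in shoot and at 22.4, 24.1, 23.7 and 20.7 in root (log2 fold change -2.37, SE 0.11, limma adjusted p = 1.01e-08). HSP90-5 (AT2G04030, chromosome 2, 1281754 to 1286144, plus strand), the plastid HSP90, stood at 164, 185.8, 188.8 and 129.2 FPKM in shoot and at 34.7, 31.9, 33.5 and 28.1 in root (log2 fold change -2.35, SE 0.13, limma adjusted p = 3.8e-08). In root the 3 genes kept similar shares of their shoot means, 21.8% ± 2.7, 18.9% ± 1.27 and 19.2% ± 1.71 (SD, n = 4). The green shoot markers kept 0.365% ± 0.265 of theirs, and without root libraries 1 and 2, where those markers were highest, the log2 fold changes were -2.31, -2.41 and -2.41.

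The mitochondrial members were HSP60-2, HSP60-3A, HSP70-9, HSP70-10 and HSP90-6. HSP60-2 (AT2G33210, chromosome 2, 14074767 to 14078772, minus strand), a subunit of the mitochondrial chaperonin, stood at 19.2, 19.5, 22.3 and 21.3 FPKM in shoot and at 44.9, 38.2, 52.0 and 43.9 in root, 2.17-fold higher (log2 fold change 1.10, SE 0.10, limma adjusted p = 3.77e-06). HSP70-10 (AT5G09590, chromosome 5, 2975436 to 2978750, plus strand) stood at 11.7, 14.02, 12.4 and 10.2 FPKM in shoot and at 33.7, 34.4, 38.6 and 29.7 in root, the largest called change towards root among the HSP70 members (log2 fold change 1.46, SE 0.12, limma adjusted p = 8.2e-07). No root library of either gene came near the shoot libraries. HSP60-3A, HSP70-9 and HSP90-6 had log2 fold changes of 0.94, 0.81 and 1.26, each without overlap of the tissues. The ER member HSP90-7 (AT4G24190), whose mutant is known as SHEPHERD for its defects in meristems, stood at 78.9, 82.0, 83.4 and 76.5 FPKM in shoot and at 127, 122.2, 125.2 and 97.1 in root (log2 fold change 0.54, SE 0.10, limma adjusted p = 5.84e-04).

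**Figure D4:**
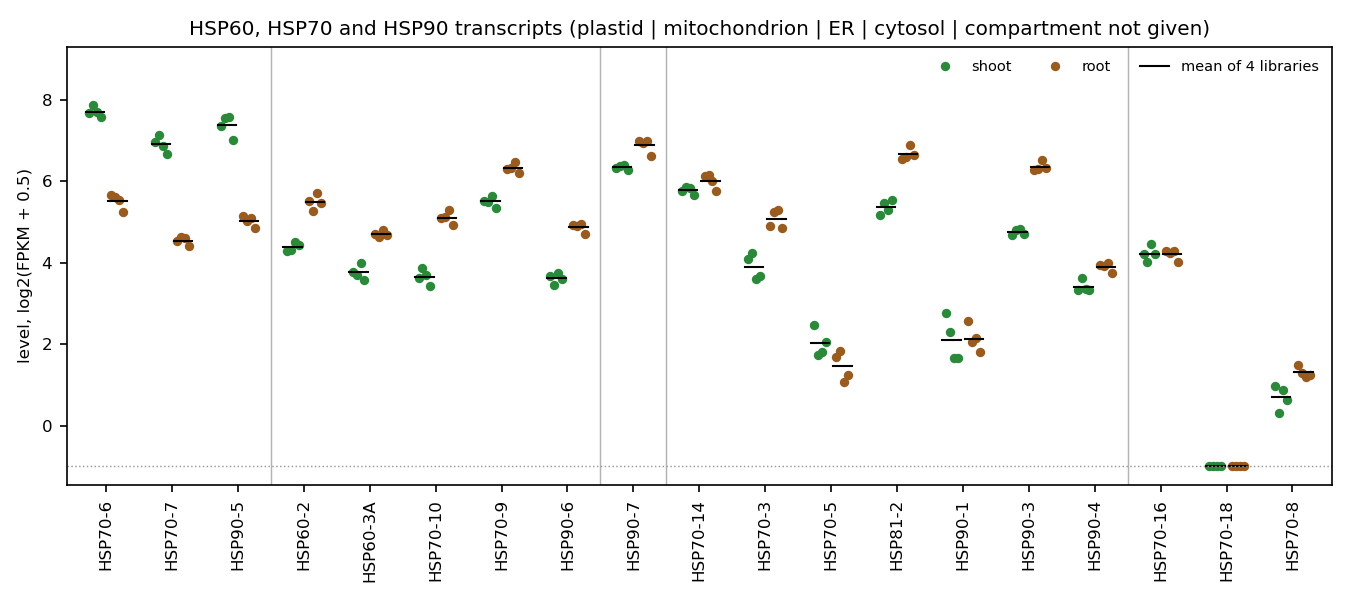
Level of each HSP60, HSP70 and HSP90 member, as log2(FPKM + 0.5), in the 4 shoot (green) and 4 root (brown) libraries, with a bar at the mean; vertical lines part the members of plastids, mitochondria, the ER and the cytosol and those with no compartment given, and the dotted line is 0 FPKM. The 3 plastid members lie higher in shoot, the 5 mitochondrial members and HSP90-7 lie higher in root, and HSP70-18 lies at 0.

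Of the 4 cytosolic HSP90 genes, 3 were higher in root. HSP90-3 (AT5G56010, chromosome 5, 22681238 to 22684252, plus strand), a constitutive gene, stood at 25.2, 27.2, 27.6 and 25.7 FPKM in shoot and at 76.3, 77.7, 91.2 and 80.1 in root (log2 fold change 1.60, SE 0.08, limma adjusted p = 2.67e-08). Its neighbours HSP81-2, also called HSP90.2, and HSP90-4 were higher in root as well, at 41 ± 4.59 and 101 ± 11.1 FPKM (log2 fold change 1.29, limma adjusted p = 1.3e-06) and at 10.2 ± 1.04 and 14.5 ± 1.06 FPKM (0.49, 0.00151; SD, n = 4). These 3 genes lie in a cluster on chromosome 5, with 1085 bp between HSP90-4 and HSP90-3 and 2220 bp between HSP90-3 and HSP81-2. Their coding sequences are 90.6% to 95.4% identical and share stretches of up to 238 bases, longer than the reads of 150 bases, so how reads were split among them is uncertain. HSP90-1, the heat-induced cytosolic gene, stood at 6.35, 4.46, 2.66 and 2.64 FPKM in shoot and at 5.38, 3.64, 3.92 and 2.98 in root. Its tissues overlapped and it was not called (log2 fold change 0.04, SE 0.27, limma adjusted p = 0.905), with both highest values in library 1 of its tissue.

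Among the cytosolic HSP70 genes, HSP70-3 (AT3G09440) was higher in root, at 14.69 ± 3.21 and 33.4 ± 5.22 FPKM (log2 fold change 1.17, limma adjusted p = 7.22e-05), and AT3G09430, on the opposite strand over 24% of it, held 37 and 94 reads against 1639 and 5785. HSP70-5, a heat-induced gene, stood at 3.63 ± 1.02 and 2.32 ± 0.706 FPKM and was called higher in shoot with overlapping tissues (log2 fold change -0.56, limma adjusted p = 0.0465). That call was lost without shoot library 1 or 4 or root library 3 or 4 (adjusted p = 0.0842 to 0.133), with a pseudocount of 0.1 (0.0539), without a filter on low values (0.0632) and with library totals (0.744). HSP70-14, of the HSP110 branch that exchanges the nucleotide of HSP70, stood at 54.6 ± 3.57 and 64.2 ± 7.62 FPKM and was not called (log2 fold change 0.23, limma adjusted p = 0.0692), though it was without root library 4 (0.31, adjusted p = 0.00785). HSP70-16 was not called, at -0.02, and HSP70-8 was higher in root, at 1.15 ± 0.322 and 1.98 ± 0.23 FPKM (log2 fold change 0.61, limma adjusted p = 0.0109), but at 0.52 without root libraries 1 and 2 it was not called (adjusted p = 0.0766). HSP70-18 had 0 reads in all 8 libraries, and its coding sequence shares stretches of up to 56 bases with that of HSP70-3.

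The compartments were also set against each other within each family, as shares of the summed FPKM of its members. Plastid HSP90-5 made up 49.4%, 50.8%, 51.8% and 42.9% of the HSP90 sum in shoot and 9.12%, 8.51%, 8.04% and 8.12% in root. The cytosolic genes took 24.1% ± 2.61 in shoot and 52.9% ± 3.15 in root, the ER gene 23.64% ± 1.32 and 31% ± 2.44, and the mitochondrial gene 3.48% ± 0.441 and 7.61% ± 0.299 (SD, n = 4). The HSP90 sum itself was 340.6 ± 30.7 FPKM in shoot and 379.5 ± 28.9 in root, and the libraries of the tissues overlapped, so the makeup of the family moved more than its total. Among the HSP70 members the plastid share went from 68.7% ± 1.5 to 22.6% ± 0.857. The mitochondrial share went from 11.9% ± 0.748 to 37.6% ± 1.84 and the cytosolic share from 15.3% ± 0.432 to 33.1% ± 1.24. The sum of these members was 478 ± 42.1 FPKM in shoot and 301.3 ± 27.1 in root, without overlap. HSP70 genes that the table lists under other symbols are not members and are outside this sum and these shares. Among them is the cytosolic HSP70-1, the most abundant HSP70 gene of the table, at 398.8 FPKM in shoot and 495.6 in root. HSP70-11 (40.9 and 83.9 FPKM) and HSP70-12 of the ER (28.6 and 89.1) are also among them. The HSP70 sum and plastid share thus hold for the members alone, not for the whole HSP70 family.

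**Figure D5:**
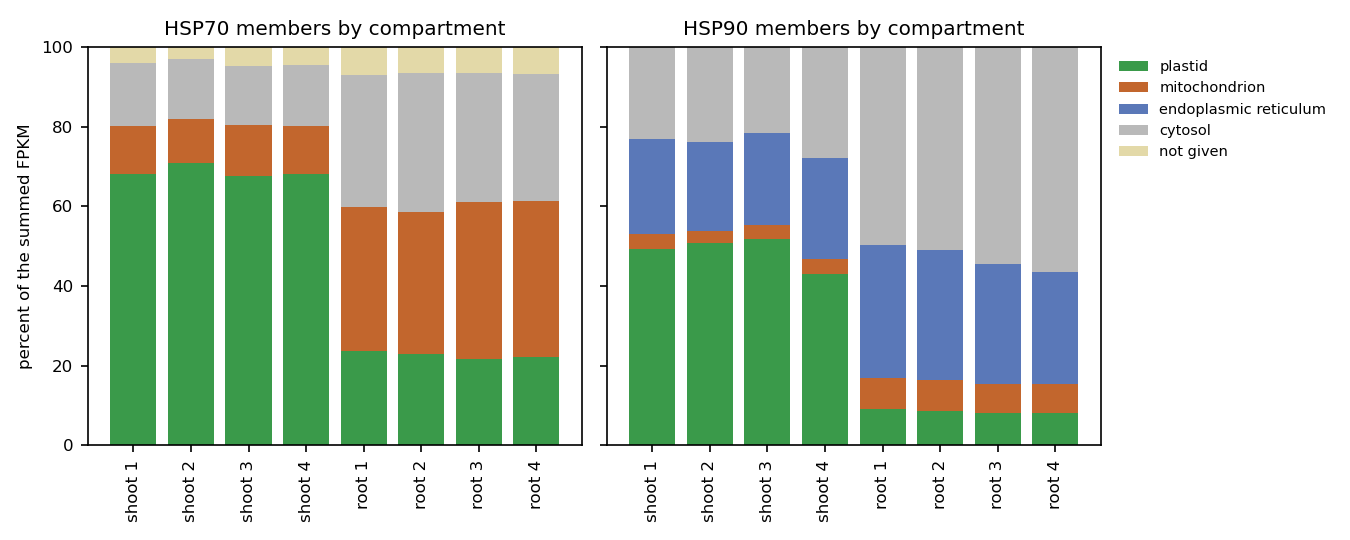
Share of the summed FPKM of the HSP70 members (left) and the HSP90 members (right) by compartment, in percent, with 1 bar per library. The plastid share of HSP90 is 42.9% to 51.8% in the shoot libraries and 8.04% to 9.12% in the root libraries, and that of HSP70 is 67.5% to 70.9% and 21.68% to 23.66%.

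Of 12 further genes of the HSP70 and HSP100 families that the table lists under other symbols, 10 were tested (median log2 fold change 0.68). There were 7 calls towards root (70%, against 37.6% of all genes) and 1 towards shoot (10%, against 32%). HSP70-1, a constitutive cytosolic gene, was the most abundant, at 398.8 ± 16.8 FPKM in shoot and 495.6 ± 36.1 in root (SD, n = 4; a log2 difference of 0.31, limma adjusted p = 0.0184), a call that was lost without shoot library 3 or without root library 2 or 3 (adjusted p up to 0.0578). HSP70-12, an ER lumenal HSP70 known as BiP2, had the largest change towards root on the log2(FPKM + 0.5) scale, at 28.6 ± 3.99 and 89.1 ± 8.24 FPKM (log2 fold change 1.63, limma adjusted p = 2.68e-07), and its coding sequence is 96% identical to that of HSP70-11, with a shared stretch of 323 bases. CLPB3, the plastid disaggregase of the HSP100 family, was the member higher in shoot, at 52.1 ± 10.7 and 7.21 ± 1.16 FPKM (log2 fold change -2.76, limma adjusted p = 6.62e-08). CLPB4, its mitochondrial counterpart, was higher in root (1.57, and 3.52-fold by the ratio of means against 3.12-fold for HSP70-12), so the plastid and mitochondrial genes differed in direction here as they did among the members. CLPB1, the cytosolic HSP101 needed for acquired heat tolerance, was not called (-0.09).

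All 16 chaperonin genes listed outside the members were called (median log2 fold change 0.67). Of them 12 went towards root (75%, against 37.6% of all genes) and 4 towards shoot (25%, against 32%). CPN20, the plastid co-chaperonin, was the most abundant over both tissues together, at 757.2 ± 101 FPKM in shoot and 94.5 ± 6.2 in root (a log2 difference of -2.99, limma adjusted p = 2.33e-09). CPN60B1, a plastid chaperonin subunit, had the largest change towards shoot, at 373.6 ± 20.5 and 24.1 ± 1.74 FPKM (-3.93, limma adjusted p = 1.17e-10). CPN60B3, annotated to the same plastid family, went the other way, at 9.03 ± 0.207 and 42.5 ± 1.75 FPKM (2.17, limma adjusted p = 1.54e-09). The mitochondrial HSP60-3B (1.45) and CPN10 (0.95) were higher in root, as were all 9 genes of the cytosolic CCT complex, with log2 fold changes from 0.25 to 0.89, though CCT3, the lowest of them, was not called without shoot library 1 (adjusted p = 0.0545).

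For 27 co-chaperone genes there were 12 calls towards root and 5 towards shoot (median log2 fold change 0.15, against 0.07 for all genes). These 17 calls were 63% of the co-chaperone genes, against 69.6% called over all genes. Of the calls, 70.6% were towards root, against 54% over all genes. With library totals the counts were 22 towards root and 2 towards shoot. By that scaling 91.7% of the calls were towards root, against 75.2% over all genes. P23-1, an HSP90 co-chaperone, was the most abundant and was not called (107.8 ± 9.85 and 119.1 ± 2.95 FPKM), though it was towards root without shoot library 2 (adjusted p = 0.0425). MGE2, the nucleotide exchange factor of mitochondrial HSP70, had the largest change towards root (6.47 ± 0.823 and 14.6 ± 1.67 FPKM; log2 fold change 1.12, limma adjusted p = 1.3e-05). SGT1A, a co-chaperone of HSP90 in immune receptor folding, had the largest towards shoot (28.7 ± 1.49 and 4.68 ± 0.666 FPKM; -2.50, limma adjusted p = 8.34e-09), while its paralogue SGT1B stood at -0.02 and was not called.

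Among 15 regulators and targets of the heat response, 11 were tested. Of these, 5 were higher in root (45.5%, against 37.6% of all genes) and 3 in shoot (27.3%, against 32%). The median log2 fold change was 0.38. With library totals the counts were 7 and 1, so 87.5% of the calls were towards root, against 75.2% over all genes. MBF1B, a transcriptional coactivator, was the most abundant over both tissues together (226.3 ± 34.4 and 150.8 ± 11.5 FPKM; log2 fold change -0.58, limma adjusted p = 0.00136), and with library totals its difference was -0.02 and was not called (adjusted p = 0.854). GOLS1, a galactinol synthase gene and target of HSFA1 and HSFA2, had the largest change towards root on the log2(FPKM + 0.5) scale (3.86 ± 3 and 30 ± 7.26 FPKM; 3.00, limma adjusted p = 3.54e-05). FTSH11, a protease of plastids and mitochondria required for heat tolerance, had the largest towards shoot (41.9 ± 1.7 and 16.1 ± 1.92 FPKM; -1.36, limma adjusted p = 3.28e-07). HSA32, another of the 3 higher in shoot (-0.41, limma adjusted p = 0.0366), lost its call in 6 of the fits that left out 1 library. Its adjusted p in those fits was up to 0.112, and with library totals its difference was 0.06.

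Of 16 genes of ER folding and the unfolded protein response, 12 were called towards root (75%, against 37.6% of all genes). Towards shoot there was 1 call (6.25%, against 32%), and the median log2 fold change was 0.61. With library totals the counts were 15 and 0, while 75.2% of the calls over all genes were towards root. PDIL1-3, a protein disulfide isomerase, had the largest change towards root (7.53 ± 0.919 and 48.6 ± 5.1 FPKM; 2.61, limma adjusted p = 6.44e-09). CRT1, a calreticulin, was the most abundant over both tissues together and higher in root (84.5 ± 7.66 and 140.8 ± 11.5 FPKM; 0.73, limma adjusted p = 4.91e-05), whereas CRT3, the calreticulin of receptor folding, was higher in shoot (41.5 ± 2.33 and 26.8 ± 1.72 FPKM; -0.62, limma adjusted p = 4.83e-05). With library totals CRT3 was not called (-0.07, adjusted p = 0.467). The ER member HSP90-7 and BiP2 were thus among genes of the ER that were mostly higher in root.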

How the data were processed

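RNA-seq of 4 shoot and 4 root samples of Col-0 was analysed, with groups taken from the tissue label. The labels' protocols describe poly-T selection, random-hexamer cDNA without strand marking, and paired reads of 150 bp. The growth protocol attached to the samples describes another species and was not used. The submitters' processing notes name the TAIR10 build, featureCounts 1.5.0-p3 and HISAT2 2.0.5. The treatment of reads shared between genes is not stated there.

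The table deposited by the authors is named as counts but holds FPKM, relative to gene length and to scaled library totals; the scaling method is not stated. Multiplied by gene length, 100% of the values fell on whole multiples of a step that is fixed within a library (largest deviation 6.69e-10 reads), which gave back the reads. The scaled sizes were 0.77 to 0.865 of the read totals in shoot and 1.18 to 1.25 in root. Pairs of libraries within a tissue differed beyond sampling noise (mean chi-square of 6.64 to 20.1 per gene), so none was counted as a copy. Tissues were compared with limma 3.58.1 (R 4.3.3; trended prior variance) on log2(FPKM + 0.5), for genes reaching 0.5 FPKM in 4 or more libraries, with Benjamini-Hochberg adjustment over all 20314. This scale understates the change of low genes. Folds against 0 reads are bounds at 3 reads over the 4 libraries, and such bounds and intervals cover counting error only. Motifs and coding sequences were compared with Python 3.11.15 on the RefSeq TAIR10.1 assembly.

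Every member is named. Values in every library are given, per class, for the most abundant gene, the largest call in each direction and any other call of 4-fold or more; those of HSFA6B, HSFA7B, HSP18.5, HSP17.7, HSP17.6A, HSP90-1 and HSP90-7, and the unlisted examples from the gene lists, were chosen after their values were seen. The members, classes and lists were chosen with earlier results of these data known. The alternatives were other pseudocounts, filters and scalings, limma-voom, a replicate block and leaving out libraries.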

Additional observations from a re-analysis of the deposited data

Results flagged for a closer look

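Within a tissue, 6 of 98 sets of 4 libraries had a library standing apart from the other 3 by more than Dixon's 95% limit, and chance gives about 1 in 20. In root library 4, HSP90-7 was at 97.1 FPKM, below the 122.2 to 127 of the other root libraries. HSFA1B was at 6.86 FPKM there, below 9.68 to 10.2 in the others. Root library 4 was the lowest root library for 25 of the 49 tested members. This was not counted over all genes, so it is not known to be particular to the members. HSP90-4 stood at 11.7 FPKM in shoot library 2, against 9.59 to 9.79 in the other shoot libraries. HSP18.1 stood at 4.05 FPKM in root library 2, against 2.75 to 2.88. HSP17.6C stood at 1.25 FPKM in root library 3, against 0.994 to 1.03. HSFB3 stood at 0.0921 FPKM in shoot library 3, from 1 read, and at 0 in the other shoot libraries.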

How the results depend on the processing

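Of the 32 members called, 28 kept their call without any 1 library, and HSFA1A, HSP70-5, HSP17.8 and HSP15.7 lost it in at least 1 such fit. Leaving out 1 library gave 22 to 25 members called towards root and 7 to 9 towards shoot, and 7129 to 7554 and 6084 to 6355 of all genes. Pseudocounts of 0.1 and 1, median-of-ratios scaling and limma-voom kept 31, 32, 32 and 31 of the calls. Without a filter 30 were kept and HSFA7B was called higher in root (adjusted p = 4.23e-05), and at a minimum of 1 FPKM 30 were kept, with HSFA6B and HSP15.7 no longer tested. Without root libraries 1 and 2, 28 were kept, and HSFA1D, HSFA4C, HSP70-8 and HSP15.7 were lost (adjusted p = 0.0534 to 0.134), with log2 fold changes of 0.39, 0.40, 0.52 and -0.41 in place of 0.37, 0.49, 0.61 and -0.61.

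Library totals alone changed most: 34 members were called towards root and 6 towards shoot, as were 12142 and 3997 of all genes, as this scaling raises all root values. Among genes called in the main fit or in this one, it turned negative log2 fold changes positive for HSP70-16 (to 0.52), HSFA5 (0.36), HOP1 (0.40), CHIP (0.08), SGT1B (0.53), BAG5 (0.46), HSBP (0.23), HSA32 (0.06), CNX2 (0.49) and IRE1A (0.41). HSBP went from a call towards shoot to a call towards root (limma adjusted p = 0.0369). CLPB1, BAG6 and NFYC10 also changed sign, to 0.36, 0.13 and 0.26, but were called in neither fit. The 11 members not tested had at most 24 reads in a tissue. Beyond the list genes named above, HSP70-17, ERDJ3A, HSBP, BZIP17 and BZIP60 also lost their main calls on leaving out 1 library. This was so in 4, 5, 4, 4 and 2 of those fits.

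Deviations of same-numbered shoot and root libraries correlated at 0.015 to 0.071, and those of differently numbered ones at -0.062 to 0.026. All were small and the main fit did not pair the samples. These values do not settle whether the numbers pair them. With the replicate number as a block, 23 members were called towards root and 9 towards shoot, with HSP70-14 gained (adjusted p = 0.0407) and HSP17.8 lost (0.0559).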
